A study of Homo sapiens with 3 samples.

Results

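The genes described here are 10 genes by which epithelial and mesenchymal states of a cell are commonly told apart: CDH1, EPCAM, VIM, FN1, CDH2, ZEB1, ZEB2, SNAI1, SNAI2 and TWIST1. They were taken by gene name from the 58735 genes listed in the RNA-seq counts of 3 libraries, and each of the 10 names was found. All libraries were labelled as DU145, a human prostate cancer line derived from a brain metastasis that grows without androgen. One library was the control. The other 2 were labelled PD-L1 knockdown 1 and PD-L1 knockdown 2 and came, per the study's methods, from cells named for shRNA 1 and shRNA 2 (short hairpin RNAs) against PD-L1, the ligand of the immune checkpoint receptor PD-1. The methods print 1 hairpin sequence, so that the hairpins differ is taken from these names. Knockdown lines were made with a lentiviral shRNA vector and selected with puromycin, with the empty vector as the control. The title of the control library holds the words Knockdown and Control, whereas the RNA-seq section of the methods names the control only as DU145. Whether that library carried the empty vector is not stated. Nothing says that the libraries came from separate cultures, and each shRNA has 1 library.

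Several facts bear on the labels. CD274, which encodes PD-L1, had 204 counts in the control, 213 in PD-L1 knockdown 1 and 224 in PD-L1 knockdown 2. The fitted log2 fold change of CD274 was 0.05 (SE 0.20, adjusted p = 0.947 by edgeR's quasi-likelihood test), so the targeted transcript was not lower in the libraries labelled knockdown. The methods state that the stable lines were checked by Western blotting, which measures protein and was not analysed here. The paper shows such a blot of PD-L1, with densitometry, for its knockdown DU145 cells. It also reports that these cells proliferated, migrated and invaded less. The count column of the control is headed RBM45, and the series text names BCPAP, a thyroid line, in place of DU145. The libraries are therefore named by their labels, and every direction below is that of the library labelled so. Total counts ranged from 14733088 to 15786457 per library, and 3 counts, taken as the upper limit behind a count of 0, came to 0.190 to 0.204 CPM.

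The labelled cell type was checked against marker lists, given as summed counts in the order control, PD-L1 knockdown 1 and PD-L1 knockdown 2. Keratins of luminal epithelium (KRT8, KRT18 and KRT19) summed to 28944, 32167 and 34132. Basal epithelial markers summed to 43, 44 and 54, and 2 of 4 were at 0. The prostate luminal markers KLK3, KLK2, TMPRSS2 and FOLH1, genes of secretory luminal cells, were at 0 in all libraries. Of the thyroid markers, NKX2-1 had 1833, 2118 and 2590 counts and FOXE1 had 738, 645 and 720, whereas TG, encoding thyroglobulin, had 11, 3 and 15. Neuroendocrine markers summed to 469, 437 and 600, of which ENO2 gave 448, 418 and 580. Markers of cells that a pure culture should lack were low: 108, 105 and 159 for fibroblasts, with DCN and LUM at 0, then 7, 13 and 10 for endothelium and 17, 6 and 11 for leukocytes. The part of any of these in the results below was not tested.

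Epithelial cells are held together by adherens junctions, in which E-cadherin binds its like on the next cell and is tied to actin through catenins. In the epithelial to mesenchymal transition (EMT), transcription factors of the SNAIL, ZEB and TWIST families repress E-cadherin, and cells gain vimentin filaments, fibronectin and often N-cadherin. ZEB factors and the miR-200 microRNAs repress each other, and many carcinoma lines hold a state between both ends.

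All 3 libraries held epithelial and mesenchymal transcripts together. VIM, encoding the intermediate filament vimentin, was the most abundant of the 10 genes, and CDH1, encoding E-cadherin, and EPCAM, encoding an epithelial adhesion molecule, followed it. ZEB1, SNAI1, FN1 and SNAI2 were low, ZEB2 was close to the limit of detection, and CDH2 and TWIST1 had no counts. None of the 8 genes that could be tested passed an adjusted p of 0.05, where 0.353% of the 19849 genes tested did, 0.247% upwards and 0.106% downwards. None of the 8 passed it with DESeq2, limma-voom, or GC and length trends removed either, where 0.0302%, 0.212% and 0.0202% of all genes did. CDH1 and VIM differed between the libraries labelled PD-L1 knockdown in opposite directions, and ZEB1 was lower in both.

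**Figure D1:**
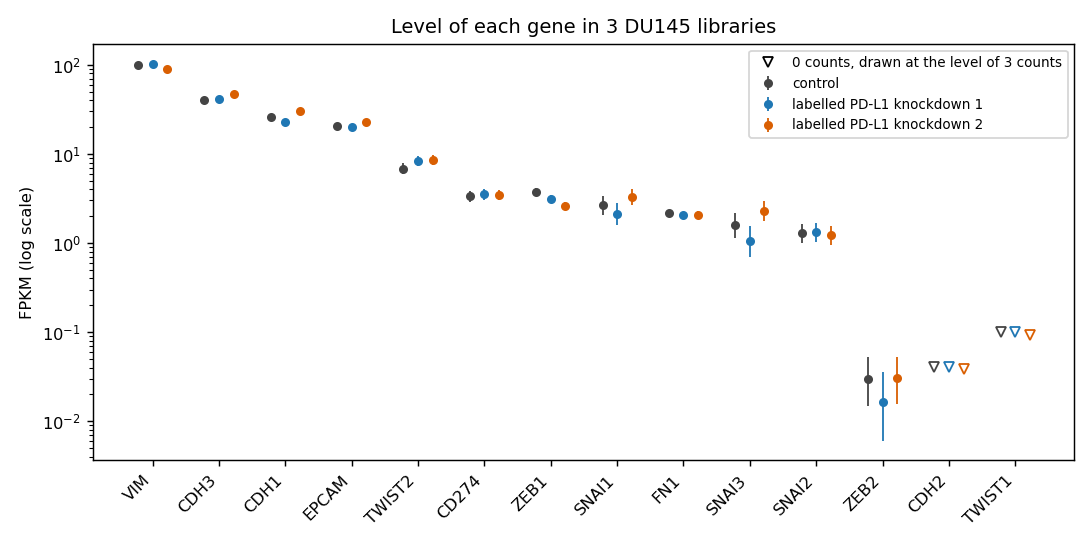
Level of each of the 10 genes, of CD274 and of the related genes CDH3, TWIST2 and SNAI3 in the 3 libraries, as FPKM on a log axis. Points are libraries, bars are exact 95% Poisson intervals of the counts, and open triangles mark 0 counts drawn at the level of 3 counts. VIM lies between 90.8 and 102.8 FPKM in every library, CDH1 between 22.7 and 30.1, and ZEB2 at or below 0.0303.

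Levels of different genes were compared per length, as FPKM (counts scaled by the listed gene length and by the library total), in the order control, PD-L1 knockdown 1 and PD-L1 knockdown 2. VIM stood at 99.3, 102.8 and 90.8 FPKM, and ranked 256, 267 and 334 among 24735, 25152 and 25617 detected genes. CDH1 stood at 26.0, 22.7 and 30.1 FPKM, at ranks 1647, 2015 and 1440. EPCAM stood at 20.8, 20.3 and 22.8 FPKM. Within each library CDH1 exceeded EPCAM, by 1.25, 1.12 and 1.32 times, but the ranges of both genes over the libraries overlapped.

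Below these came genes several times lower. ZEB1 stood at 3.77, 3.14 and 2.62 FPKM, SNAI1 at 2.64, 2.13 and 3.30, and FN1 at 2.19, 2.04 and 2.09. The order of these neighbours was not fixed. ZEB1 exceeded SNAI1 by 1.43 times in the control (95% counting interval 1.10 to 1.88), whereas in PD-L1 knockdown 2 the ratio was 0.793 and its interval, 0.626 to 1.01, included 1. SNAI1 and FN1 did not differ beyond counting error in the control (ratio 1.21, 0.920 to 1.56) or in PD-L1 knockdown 1 (1.04, 0.769 to 1.38), whereas in PD-L1 knockdown 2 SNAI1 was higher (1.58, 1.25 to 1.98). SNAI2 was lower than FN1 in every library, at 1.29, 1.32 and 1.23 FPKM. ZEB2 stood at 0.0296, 0.0162 and 0.0303 FPKM. The order also rests on the listed lengths, which count every annotated exon and run from 1686 bases for SNAI1 to 25058 for ZEB2.

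CDH1 (ENSG00000039068, plus strand of chromosome 16 from 68737225 to 68835548, GRCh38) had 2384 counts in the control, 2072 in PD-L1 knockdown 1 and 2940 in PD-L1 knockdown 2. The control therefore lay between the libraries labelled knockdown. Against it, CDH1 was at a ratio of 0.873 in PD-L1 knockdown 1 (0.823 to 0.926) and of 1.15 in PD-L1 knockdown 2 (1.09 to 1.22). Such intervals cover counting error only, compare single libraries and hold no variation between cultures. Averaged over both, the log2 fold change was 0.02 (SE 0.12, edgeR adjusted p = 0.969). It was -0.20 with PD-L1 knockdown 1 alone and 0.21 with PD-L1 knockdown 2 alone.

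The gap between both knockdown libraries was 1.32-fold for CDH1 (1.25 to 1.40). A gap at least as wide on the log2 scale, 0.40 in either direction, was found for 584 of the 10861 genes averaging 100 counts or more, or 5.38%. An antisense transcript over CDH1, AC099314.1, had 2, 11 and 7 counts, and a pseudogene within it, FTLP14, had 13, 0 and 12. These are few beside the counts of CDH1, with which transcripts of other genes shared 7.65% of its 31-base words.

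EPCAM (ENSG00000119888, chromosome 2 from 47345158 to 47387601, plus strand) had 778, 755 and 907 counts. Its ratio to the control was 0.975 in PD-L1 knockdown 1 (0.881 to 1.08) and 1.09 in PD-L1 knockdown 2 (0.988 to 1.20), so neither library differed from the control beyond counting error on this scale. With the trends with GC content and transcript length removed, an alternative chosen after seeing the data, the ratio in PD-L1 knockdown 2 was 1.16 (1.05 to 1.28), which excludes 1, and that in PD-L1 knockdown 1 was 0.984. The 2 knockdown libraries differed by 1.12-fold (1.01 to 1.23), a gap reached by 36.4% of the well-counted genes. The fitted log2 fold change was 0.05 (SE 0.14, edgeR adjusted p = 0.936).

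VIM (ENSG00000026025, chromosome 10 from 17228259 to 17237593, plus strand) had 7608, 7842 and 7399 counts. It was at 1.04 times the control in PD-L1 knockdown 1 (1.003 to 1.07) and at 0.908 times in PD-L1 knockdown 2 (0.880 to 0.938). On this scale the order of the libraries was the reverse of that for CDH1. With GC and length trends removed, VIM was at 0.990 of the control in PD-L1 knockdown 1 (0.959 to 1.02) and at 0.867 in PD-L1 knockdown 2, so that neither library lay above the control. PD-L1 knockdown 2 stood at 0.877 of PD-L1 knockdown 1 (0.850 to 0.906), and 29.1% of well-counted genes were at least as far apart. The fitted log2 fold change was -0.04 (SE 0.11, edgeR adjusted p = 0.923). VIM shared 23.2% of its 31-base words with other genes, most with its antisense gene VIM-AS1, which had 16, 20 and 30 counts.

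FN1, encoding fibronectin of the extracellular matrix (ENSG00000115414, chromosome 2 from 215360440 to 215436172, minus strand), had 562, 523 and 571 counts. Its ratios to the control were 0.935 (0.828 to 1.05) and 0.949 (0.843 to 1.07), and its log2 fold change was -0.09 (SE 0.16, edgeR adjusted p = 0.876). CDH2, encoding N-cadherin (ENSG00000170558, chromosome 18 from 27950966 to 28177446, minus strand), had 0 counts in each library. At this depth 0 counts allow up to 0.0408, 0.0410 and 0.0384 FPKM, so that CDH2 was at most 0.00157, 0.00181 and 0.00127 of the level of CDH1 per length. Of 4 further cadherins in the list of adhesion partners, CDH4 had 0, 3 and 0 counts, and CDH6 and CDH11 had none. CDH3, encoding P-cadherin, stood at 40.2, 41.0 and 46.7 FPKM, above CDH1 in every library, although CDH3 shared 14.8% of its 31-base words with other genes.

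ZEB1, a zinc finger repressor of CDH1 (ENSG00000148516, chromosome 10 from 31318495 to 31529814, plus strand), had 484 counts in the control, 402 in PD-L1 knockdown 1 and 358 in PD-L1 knockdown 2. Both libraries labelled knockdown were below the control, at ratios of 0.834 (0.729 to 0.954) and 0.691 (0.601 to 0.794). ZEB1 had the largest fold change of the 8 genes tested, a log2 fold change of -0.39 (SE 0.17). Its unadjusted p was 0.0179 by edgeR, a level that 11.7% of all genes tested passed, 6.82% upwards and 4.92% downwards, and its adjusted p was 0.316. No other member passed the unadjusted threshold. Antisense to ZEB1 and overlapping it lies ZEB1-AS1, with 47, 52 and 33 counts.

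The GC content of the transcripts moved with this result. Among genes in the class of lowest GC content (37.2%) the median log2 ratio to the control was -0.17 in PD-L1 knockdown 1 and -0.29 in PD-L1 knockdown 2, against 0.18 and 0.34 in the class of highest GC content (65.3%). ZEB1 has a GC content of 41.4%. The 1291 genes within 1 percentage point of it had median log2 ratios of -0.09 and -0.18, and 9.14% of them were lower than ZEB1 on the average of both libraries. With the trends with GC content and length removed, the log2 fold change of ZEB1 was -0.24 (edgeR adjusted p = 0.853). Its ratios then were 0.903 (0.789 to 1.03) and 0.787 (0.685 to 0.905), so that the interval of PD-L1 knockdown 1 included 1.

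**Figure D2:**
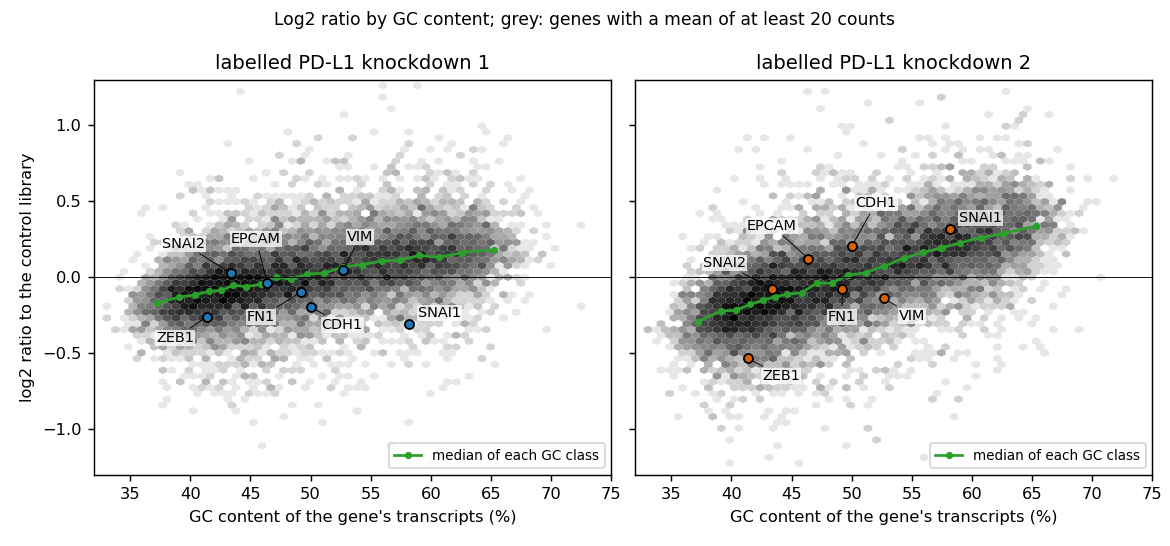
Log2 ratio of each library labelled PD-L1 knockdown to the control against the GC content of the gene's transcripts in percent. Grey hexagons are genes averaging 20 counts or more (those beyond 1.3 on the log2 axis are not drawn), the green line joins the medians of 20 GC classes, and circles are 7 of the 10 genes. The medians climb from -0.17 to 0.18 on the left and from -0.29 to 0.34 on the right. ZEB1 at 41.4% GC lies below the line in both panels, and CDH1 at 50.02% lies below it on the left and above it on the right.

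ZEB1 and ZEB2 are known targets of the miR-200 family, whose members pair through bases 2 to 8 (the seed) with sites in the 3′ untranslated region (3′UTR). Mature microRNAs were not measured here, and their sequences are shown for their relation to the sites in ZEB1 and to MIR200CHG, the host transcript of miR-200c and miR-141, which was measured. In these sequences (RefSeq, GRCh38.p14) capitals mark the seed, and the family falls into 2 seed groups that differ in 1 base. The first group also holds miR-200b and miR-429, and the second miR-200a.
hsa-miR-200c-3p: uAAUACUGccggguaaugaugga
hsa-miR-141-3p: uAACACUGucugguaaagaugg

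The 3′UTR of the ZEB1 transcript ZEB1-205 is 2549 bases long and held 6 copies of CAGTATT, the complement of the first seed, and 3 of CAGTGTT, the complement of the second. Of 3992 human 3′UTRs cut to that length, 27.6% held CAGTATT at least once and 0.0251%, or 1 of 3992, held at least as many copies as ZEB1. ZEB1 was not left out of the 3992, so this 1 may be ZEB1 itself. For CAGTGTT the shares were 30.4% and 0.977%. The 3′UTR of the ZEB2 transcript ZEB2-227, 5370 bases long, held 5 and 4 copies. A match is a description of the letters and not a measured site. Shown for ZEB1 are 2 copies of the first kind and 1 of the second, from GENCODE transcripts on the plus strand of GRCh38, with the match in capitals.
chr10:31527621-31527643: gttttatcttatCAGTATTatca
chr10:31527715-31527737: ctaaatccgcttCAGTATTttat
chr10:31528034-31528056: aatcatcagaatCAGTGTTtgtg

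MIR200CHG had 0 counts in the control, 13 in PD-L1 knockdown 1 and 11 in PD-L1 knockdown 2. With 3 counts set for the control library, PD-L1 knockdown 1 was at least 4.35-fold higher and PD-L1 knockdown 2 at least 3.42-fold higher, before the counting error of the 13 and 11 counts. The 95% counting intervals of these ratios began at 3.06 and 2.34, and at 2.67 and 1.98 with GC and length trends removed. The gene passed a threshold of an unadjusted p under 0.05 by edgeR with an absolute log2 fold change above 1. Of all genes tested, 2.48% passed it, 1.54% upwards and 0.942% downwards. With 0 counts in the only control, MIR200CHG entered the test solely through counts of the knockdown-labelled libraries. A gene that enters in this way has a large positive log2 fold change by construction, here 6.59. The share over all genes tested is therefore not a like comparison for MIR200CHG. MIR200CHG had an edgeR adjusted p of 0.129. It is a short gene of few counts on chromosome 12, and the annotated MIR141 and MIR200C that it overlaps had 0 counts each in these poly(A) libraries.

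The SNAIL family factors were low and gave wide intervals. SNAI1 (ENSG00000124216, chromosome 20 from 49982999 to 49988886, plus strand), a direct repressor of CDH1, had 66, 53 and 88 counts, so the control again lay between the knockdown libraries. Its ratios to the control, 0.807 (0.551 to 1.18) and 1.25 (0.895 to 1.74), both included 1, and PD-L1 knockdown 2 stood 1.54-fold above PD-L1 knockdown 1 (1.09 to 2.21). The fitted log2 fold change was 0.04 (SE 0.32, edgeR adjusted p = 0.972). With the GC and length trends removed it was -0.18, with an adjusted p of 0.951, at a GC content of 58.2%. SNAI2, also called Slug (ENSG00000019549, chromosome 8 from 48917604 to 48921740, minus strand), had 65, 66 and 66 counts and was the steadiest of the factors, with ratios of 1.02 (0.713 to 1.46) and 0.948 (0.663 to 1.36). Its log2 fold change was -0.02 (SE 0.33, edgeR adjusted p = 0.986).

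ZEB2 (ENSG00000169554, chromosome 2 from 144364364 to 144524583, minus strand), the close relative of ZEB1, had 11, 6 and 12 counts. Its ratios of 0.548 (0.166 to 1.62) and 1.02 (0.412 to 2.55) leave changes of more than 2-fold within counting error, and its log2 fold change was -0.34 (SE 0.85, edgeR adjusted p = 0.919). TWIST1, a basic helix-loop-helix factor (ENSG00000122691, chromosome 7 from 19020991 to 19117672, minus strand), had 0 counts in each library, which allows up to 0.0994, 0.0998 and 0.0934 FPKM. No change of CDH2 or TWIST1 could be measured at this depth.

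**Figure D3:**
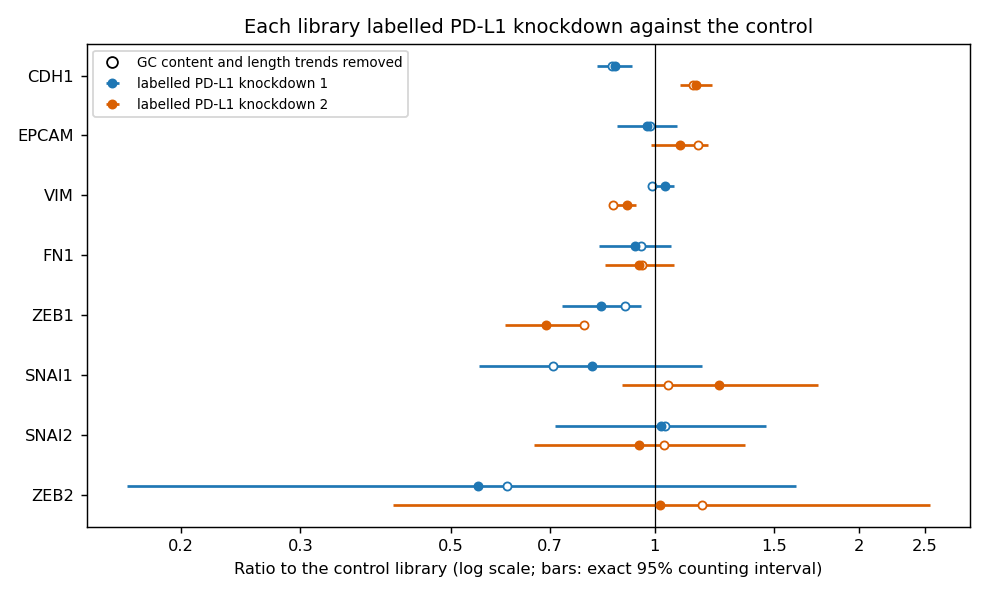
Ratio of each library labelled PD-L1 knockdown to the control for the 8 genes with counts, on a log axis. Filled circles are ratios on TMM-scaled counts, bars their exact 95% counting intervals, and open circles the ratios with GC content and length trends removed. CDH1 lies at 0.873 and 1.15, on opposite sides of 1, and ZEB1 at 0.834 and 0.691, below 1 in both libraries.

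Counted over the 8 genes tested, 3 had an interval that excluded 1 in PD-L1 knockdown 1 against the control, CDH1, VIM and ZEB1, where 29.0% of all genes tested did. The same 3 genes did so in PD-L1 knockdown 2, where the share of all genes was 38.2%. Of the 5 members averaging 100 counts or more, 3 excluded 1 in each comparison, beside 40.6% and 56.2% of all genes counted as deeply. Between the 2 knockdown libraries, CDH1, EPCAM, SNAI1, VIM and ZEB1 excluded 1, 5 of 8 beside 26.2% of all genes, and 4 of the 5 well-counted members did beside 37.5%. With GC and length trends removed, CDH1 alone of the 8 excluded 1 in PD-L1 knockdown 1 (21.6% of all genes did), and CDH1, EPCAM, VIM and ZEB1 did in PD-L1 knockdown 2 (27.0%). Between the knockdown libraries CDH1, EPCAM, SNAI1 and VIM then did, 4 of 8 beside 22.5%. Intervals that cover counting error only thus exclude 1 for many genes in these libraries.

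Ratios of members within a library do not depend on scaling between libraries. VIM per CDH1, each per length, was 3.82 in the control, 4.53 in PD-L1 knockdown 1 and 3.01 in PD-L1 knockdown 2. Relative to the control it was 1.19 (1.11 to 1.27) and 0.789 (0.740 to 0.840), so the libraries labelled knockdown lay on either side of the control, at 0.665 of each other (0.623 to 0.710). VIM per EPCAM, 4.78, 5.07 and 3.98, was 1.06 (0.955 to 1.18) and 0.834 (0.753 to 0.924) of the control value. FN1 per CDH1 was 1.07 (0.935 to 1.23) and 0.824 (0.723 to 0.939), and ZEB1 per CDH1 0.956 (0.824 to 1.11) and 0.600 (0.516 to 0.696). Each of these 4 mesenchymal to epithelial ratios was lower than in the control in PD-L1 knockdown 2, while in PD-L1 knockdown 1 only VIM per CDH1 differed from it beyond counting error, and upwards. Each ratio holds CDH1, VIM or both, so the 4 are not separate observations. The GC trend was not removed from them. Genes of like GC content had median log2 ratios of PD-L1 knockdown 2 to the control that differed by member. They were -0.18 for ZEB1, -0.07 for EPCAM, -0.001 for FN1, 0.02 for CDH1 and 0.07 for VIM. Since each shRNA has 1 library, the shRNA and the library cannot be told apart.

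Lists of other genes of the transition were read in the same edgeR fit. Of 92 genes tested in 5 lists of 116 genes, 1 passed the adjusted p, ID3. Genes with a positive log2 fold change numbered 64 of the 92, with a median of 0.14 beside 0.00 for all genes tested, of which 50.2% were positive, and 15 of the 92 had an unadjusted p under 0.05 (13 higher, 2 lower) beside 11.7% of all genes. The median GC content of the 92 was 54.5%, and with the GC and length trends removed their median log2 fold change was 0.02.

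Among 12 tested of 17 other EMT factors, ID3 rose. ID proteins bind basic helix-loop-helix factors and keep them from DNA. ID3 had 774, 1088 and 1217 counts, at 1.41 (1.29 to 1.55) and 1.47 (1.34 to 1.61) times the control, with a log2 fold change of 0.53 (SE 0.14, edgeR adjusted p = 0.0458). With the GC and length trends removed its log2 fold change was 0.33 and its adjusted p 0.827. Its adjusted p was above 0.05 also with DESeq2, limma-voom, library totals in place of TMM and a filter of at least 1 count, and it ranged from 0.0287 to 1.00 over the settings tried. ID1 had 2021, 2271 and 2542 counts, YBX1, an RNA- and DNA-binding protein, 8794, 9758 and 10561, and TCF3, a helix-loop-helix repressor of CDH1, 3749, 4022 and 4663. KLF8 had 114, 88 and 98, and FOXC2, TCF4 and FOXQ1 were at 0 in all libraries. The list's median log2 fold change was 0.16, and -0.00 with the trends removed.

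Of 16 regulators of the epithelial state, 11 were tested and none passed the adjusted p. FOXA1, a pioneer factor of luminal cells, had 1933, 1934 and 2185 counts, KLF5 had 1286, 1201 and 1437, and ESRP2, a splicing factor of epithelial isoforms, had 633, 681 and 792. KLF4 had 144, 191 and 224 counts (log2 fold change 0.48, edgeR adjusted p = 0.360) and ELF3 had 300, 347 and 436 (0.33, adjusted p = 0.451). GRHL2, TP63 and MIR205HG were at 0 in all libraries. The list's median was 0.04 and 0.02 with the trends removed.

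Epithelial effectors, such as tight junction proteins and keratins, were tested for 29 of 30 genes. None passed the adjusted p, 5 of 29 had an unadjusted p under 0.05, all higher, beside 6.82% of all genes upwards. Positive log2 fold changes numbered 22 of the 29, beside 50.2% of all genes. CLDN4, a tight junction claudin, had 231, 295 and 390 counts (log2 fold change 0.52, SE 0.19, edgeR adjusted p = 0.224). MARVELD2, encoding tricellulin, went the other way with 162, 154 and 102 counts (-0.38, adjusted p = 0.530). KRT8 had 16068, 17914 and 19056 counts, KRT18 had 7784, 8668 and 8200, and KRT19 had 5092, 5585 and 6876. The median of the list was 0.17 at a median GC content of 57.3%, and 0.02 with the trends removed.

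Catenins and other adhesion partners of E-cadherin were tested for 10 of 13 genes and none passed the adjusted p. CTNNA1, encoding alpha-catenin, had 8112, 8297 and 9096 counts and VCL, encoding vinculin, 6387, 6303 and 7233. JUP, encoding plakoglobin, had 1926, 2146 and 2806 (log2 fold change 0.31, SE 0.12, edgeR adjusted p = 0.266) and NECTIN2 had 1152, 1168 and 1502. CDH3 had 3718, 3778 and 4599, and CDH6 and CDH11 were at 0. The median was 0.04 and 0.06 with the trends removed.

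Mesenchymal effectors were tested for 30 of 40 genes, and again none passed the adjusted p. An unadjusted p under 0.05 was found for 4 higher and 2 lower genes, beside 6.82% and 4.92% of all genes. Positive log2 fold changes numbered 19 of 30, beside 50.2% of all genes. COL6A1, a chain of collagen VI, had 1359, 1619 and 2140 counts (log2 fold change 0.42, SE 0.13, edgeR adjusted p = 0.115) and S100A4 had 123, 164 and 205 (0.53, SE 0.23, adjusted p = 0.326). The abundant members ITGB1, AXL and MSN had 28380, 26266 and 28488, then 16278, 17234 and 20015, and 9928, 9969 and 11219 counts. MMP2, SPARC, POSTN, DCN and LUM were at 0. The median of the list was 0.10 and -0.02 with the trends removed, so that the epithelial and the mesenchymal effectors had medians of the same sign before this step and medians near 0 after it.

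**Figure D4:**
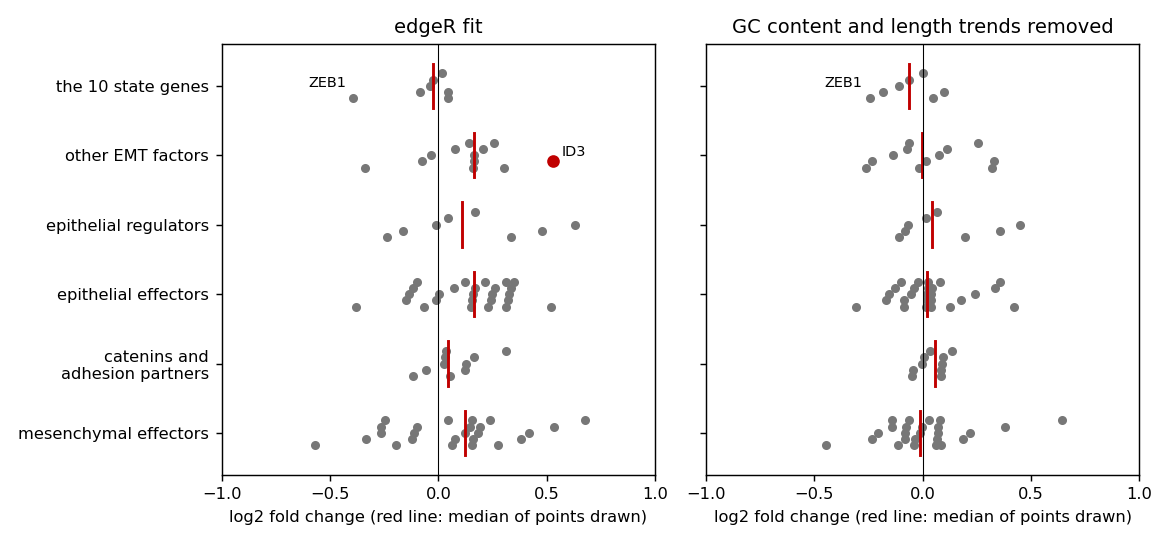
Log2 fold change between the knockdown-labelled libraries and the control for the 10 genes and 5 lists, by edgeR (left) and with GC content and length trends removed (right). Points are genes averaging 20 counts or more, red lines are medians of the points drawn, and the red point is ID3, the gene past an adjusted p of 0.05. The medians of epithelial and mesenchymal effectors lie at 0.16 and 0.12 on the left and at 0.02 and -0.01 on the right.

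Factors of the SNAIL and ZEB families bind E-boxes with the letters CACCTG. In 250 bases before to 50 after each start in RefSeq (GRCh38.p14), these letters or their reverse complement CAGGTG stood in 7231 of 35116 promoters, or 20.6%. Of the members with an entry, ZEB1 held them at 2 of its 7 starts, and ZEB2, FN1, VIM and CDH2 held none. CDH1, EPCAM, SNAI1, SNAI2 and TWIST1 had no entry in the promoter set used and were not searched. One match of ZEB1 is shown in capitals, on the plus strand.
chr10:31318351-31318374: aggtgacagCAGGTGagggccggg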

How the data were processed

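RNA-seq was made from TRIzol-extracted, poly(A)-selected RNA by a service company. The authors deposited unnormalized read counts per gene and FPKM, which are the same counts scaled for gene length and library size. The submitters' processing notes name Bowtie2 2.0.6, TopHat2 2.0.9, Cufflinks 2.1.1 and Cuffdiff 2.1.1. The counting tool, the strand setting and the build are not given in the sources used here. Gene identifiers and positions are those of GENCODE on GRCh38. Without a known strand setting, antisense reads cannot be told apart.

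The test was edgeR 4.0.16 (R 4.3.3, TMM, glmQLFit, glmQLFTest, Benjamini-Hochberg adjustment), with 2 knockdown-labelled libraries against 1 control, on the 19849 genes whose counts summed to 10 or more. The fit has 1 residual degree of freedom and a common dispersion of 0.00719, from the knockdown-labelled libraries, so p-values do not cover variation between control cultures and may measure technical spread. Its prior degrees of freedom were infinite, so each SE and p-value rests on a spread shared across genes. A gene's own gap between the knockdown libraries does not enter it. With GC and length trends removed the prior degrees of freedom were 12.7, so adjusted p-values of the 2 fits rest on spreads estimated differently. Ratios of 2 libraries have exact 95% intervals of counts on TMM-scaled totals. They cover counting error only, since each side is 1 library. Reads copied by PCR and lacking molecular identifiers are not independent, so the intervals may be too narrow even for that. GC and length trends were removed with offsets from medians of 20 classes. Alternatives were DESeq2 1.42.0, limma-voom 3.58.1, other filters and scalings, and leaving out each knockdown library.

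The members and lists were chosen with earlier results of these data known. From each list were named the genes called, the 3 with the highest mean FPKM and the 2 with the largest fold change among those with a mean of at least 100 counts, besides the genes at 0. No gene was named for likeness of pattern, since 3 libraries give too few points. Some markers of the prostate and thyroid lists are not reported here.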

Additional observations from a re-analysis of the deposited data

Results flagged for a closer look

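CDH1 and VIM were singled out because the 2 libraries labelled PD-L1 knockdown lay on opposite sides of the control, each with a counting interval that excluded 1. PD-L1 knockdown 2 stood at 1.32 times PD-L1 knockdown 1 for CDH1 and at 0.877 times for VIM. The difference was not tested, because each label has 1 library, and with the GC and length trends removed VIM in PD-L1 knockdown 1 was at 0.990 of the control.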

How the results depend on the processing

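Of 286 values of 58 results recomputed under other settings, 268 kept their direction and their side of the threshold or moved by less than the error. Among these, 8 ratios recomputed from counts without gene length could not differ, since length cancels in a ratio to the control. The tally did not ask whether a ratio's interval still excluded 1. With GC and length trends removed that changed, for instance, for EPCAM in PD-L1 knockdown 2 and ZEB1 in PD-L1 knockdown 1. No member passed the adjusted p under any setting tried, with a lowest value of 0.255, for ZEB1, whose log2 fold change ranged from -0.53 to -0.24. The 1 other EMT factor called, ID3, became 0 with library totals, a filter of at least 1 count, DESeq2, limma-voom, or GC and length trends removed, and its adjusted p was then 0.0519, 0.0769, 1.00, 0.0865 and 0.827. The 1 epithelial regulator past the threshold with a log2 fold change above 1, MIR200CHG, became 0 with a filter on a mean of at least 20 counts, which left it out. With the GC and length trends removed, SNAI1 (-0.18) and SNAI2 (0.047) changed sign, and VIM was at 0.990 and 0.867 of the control in PD-L1 knockdown 1 and 2. With 1 knockdown library left out, CDH1 ranged from -0.20 (without PD-L1 knockdown 2) to 0.21 (without PD-L1 knockdown 1), SNAI1 from -0.31 to 0.32, ZEB2 from -0.85 to 0.030, EPCAM from -0.037 to 0.13, VIM from -0.14 to 0.050 and SNAI2 from -0.073 to 0.028, all with a change of sign and no test, whereas FN1 and ZEB1 stayed below 0. Over all genes, 70 passed the adjusted p with edgeR, 6 with DESeq2, 42 with limma-voom and 4 of 19838 with the trends removed. No paired analysis was possible because the control is 1 library with no replicate number. Depth limits ZEB2, SNAI1, SNAI2 and MIR200CHG, and CDH2 and TWIST1 gave no fold. The cause of these changes was not tested.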

Other observations

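Relatives of members that were low or absent were read in the same libraries, chosen after their values were seen. TWIST2, of the same family as TWIST1, had 191, 233 and 254 counts (6.85, 8.39 and 8.56 FPKM) in the control, PD-L1 knockdown 1 and PD-L1 knockdown 2, so that it was detected where TWIST1 had 0. Its log2 fold change was 0.30 (SE 0.20, edgeR adjusted p = 0.580), and 0.07 with the GC and length trends removed. SNAI3, the third SNAIL gene, had 41, 27 and 63 counts. Its ratios to the control were 0.661 (95% counting interval 0.391 to 1.10) in PD-L1 knockdown 1 and 1.44 (0.953 to 2.18) in PD-L1 knockdown 2. Both intervals included 1. PD-L1 knockdown 2 stood at 2.17 times PD-L1 knockdown 1 for SNAI3 (1.36 to 3.54), with a GC content of 65.4%. With the GC and length trends removed, the ratios of SNAI3 to the control were 0.554 (0.328 to 0.923) and 1.09 (0.725 to 1.66).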
